A study of Homo sapiens with 24 samples.

Results

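The Hippo pathway is represented here by 10 genes: the coactivator genes YAP1 and WWTR1 (which encodes TAZ), the kinase gene LATS2, the transcription factor genes TEAD1 and TEAD4, and the target genes CTGF, CYR61, ANKRD1, AMOTL2 and AXL. They were chosen by gene name from the 29744 genes of the deposited count table, which uses the older symbols CTGF for CCN2 and CYR61 for CCN1, and all 10 were found and passed the filter on low counts in each line. Their RNA was measured by TAGseq, which counts tags read near the 3′ ends of polyadenylated RNA. The cells were 2 triple-negative breast cancer lines, the basal-like HCC1806 and the mesenchymal-like MDA-MB-231. In each line, populations that had undergone whole-genome doubling by cell fusion, by mitotic slippage or by cytokinesis failure were isolated by cell sorting and expanded, and the parental aneuploid population was kept as control. Each of these 8 groups has 3 biological replicates, 24 libraries in all, taken after 48 hours of growth with no further treatment. Each route is represented by 1 derived population per line as far as the labels say, so a change belongs to that population, and an effect of the route cannot be told apart from one of the sort, the expansion or the founding cells. P-values measure the spread between the replicate samples of a group, and the labels do not say how these replicates were taken from a population.

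In the Hippo pathway the kinases MST1 and MST2 activate LATS1 and LATS2, which phosphorylate YAP and TAZ and thereby keep them out of the nucleus. When the kinases are inactive, YAP and TAZ enter the nucleus, bind TEAD factors and switch on genes such as CTGF, CYR61 and ANKRD1. AMOTL2 and LATS2 are targets that in turn restrain YAP, which makes them feedback genes. LATS2 has been described as active in tetraploid cells after failed cytokinesis, and YAP as a factor whose activity such cells must regain to divide. Most of this regulation acts on the proteins, which RNA levels do not show.

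Upstream sequences are given for CTGF and ANKRD1, the targets whose falls against control were the widest, because TEAD factors bind a short DNA word whose core is GGAATG. Each line holds the 250 bases before the RefSeq start site (GRCh38.p14), read 5′ to 3′ in the direction of the gene, with each GGAATG in capitals. The CTGF window lies at chr6:131951373-131951622 and the ANKRD1 window at chr10:90921088-90921337, both on the minus strand.
CTGF: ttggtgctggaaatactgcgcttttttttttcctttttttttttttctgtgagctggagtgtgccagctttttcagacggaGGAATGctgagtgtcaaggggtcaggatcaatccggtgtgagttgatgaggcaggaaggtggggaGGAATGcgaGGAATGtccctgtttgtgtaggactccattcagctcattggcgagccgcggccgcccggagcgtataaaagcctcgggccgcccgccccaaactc
ANKRD1: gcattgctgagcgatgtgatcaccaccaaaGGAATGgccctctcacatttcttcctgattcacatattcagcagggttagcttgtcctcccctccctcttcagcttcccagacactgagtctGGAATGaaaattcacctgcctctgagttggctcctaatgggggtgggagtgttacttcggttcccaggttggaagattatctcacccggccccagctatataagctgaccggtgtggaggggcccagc

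GGAATG stands 3 times in the CTGF window, 169, 104 and 95 bases before the start, and 2 times in the ANKRD1 window, 220 and 128 bases before it. Searched on both strands, as GGAATG or CATTCC, at least 1 copy is present in 11.9% of 35116 RefSeq windows of the same length, at least 2 copies in 0.94% and at least 3 in 0.0826%. The ANKRD1 window also holds 1 match to TGANTCA, a pattern looser than the AP-1 word because N may be any base. The match reads TGATTCA, 195 bases before the start, and 6.57% of all windows hold at least 1 match to the pattern. Single copies of the TEAD word were found upstream of YAP1 (162 bases before the start), of an AXL start inside the gene (212 bases) and of a second AMOTL2 start (69 bases). None was found before the outermost starts of AXL and AMOTL2 or in the windows of LATS2 and WWTR1. Of the 10 genes, 7 had a window; CYR61, TEAD1 and TEAD4 had none. A match of these letters describes the sequence and is no evidence of binding.

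The total estimated count per library was 3060622 to 4030297 in HCC1806 and 2455707 to 3837957 in MDA-MB-231. Levels are given as CPM (counts scaled to a common library total, here by the TMM method over all 24 libraries), a share of the library's RNA; in a bulk sample fewer expressing cells and less RNA per cell cannot be told apart. The lines matched their labels: VIM, a mesenchymal gene, had 0 to 7 counts per library in HCC1806 against 7598 to 11262 in MDA-MB-231, and KRT5, a basal keratin, had 1135 to 1934 against 0 to 1. CD3E, a T cell gene, and the fibroblast gene COL1A2 were at 0 in every library, while the collagen gene COL1A1 had 7 to 20 counts per library in HCC1806 and 3 to 15 in MDA-MB-231 and passed the filter in HCC1806. Of the 5 immune genes only CD68, a lysosomal protein gene, passed the filter. The summed immune list ranged from 36.5 to 40.0 CPM in HCC1806 fusion, 29.9 to 32.7 CPM in slippage, 26.4 to 30.8 CPM in cytokinesis failure and 36.5 to 39.2 CPM in control libraries, and from 87.5 to 107 CPM in MDA-MB-231 fusion, 106 to 109 CPM in slippage, 103 to 120 CPM in cytokinesis failure and 65.7 to 74.1 CPM in control libraries. Of the 5 basal epithelial markers KRT5, KRT14, KRT6A, CDH1 and EPCAM, HCC1806 cytokinesis failure lowered KRT14 and KRT6A, with log2 changes of -1.80 ± 0.072 and -1.36 ± 0.056 (SE; edgeR adjusted p = 4.13e-37 and 4.43e-36), and raised KRT5 (0.16 ± 0.043, adjusted p = 0.00472). HCC1806 fusion lowered KRT14 (-0.59 ± 0.064) and EPCAM (-0.14 ± 0.040), and HCC1806 slippage lowered KRT14 (-0.63 ± 0.064) and KRT6A (-0.52 ± 0.053). The part of these markers in the results was not tested. In MDA-MB-231, slippage replicate 3 and cytokinesis failure replicate 1 stood apart from their replicates, as a chi-square over genes, divided by its degrees of freedom, came to 2.34 to 2.55 for pairs with either library and to 1.29 to 1.92 for the rest. The tests that use that line, other than the comparison of the controls, were therefore also run without both libraries.

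Against control, 17 of the 60 tests of these genes passed the threshold (edgeR quasi-likelihood test, Benjamini-Hochberg adjusted p below 0.05 over all genes), 11 of them lower and 6 higher. Of all genes tested, 3.33% (HCC1806 slippage) to 17.4% (MDA-MB-231 fusion) were called per comparison with control. The Hippo genes were chosen with earlier results of these data known, so their share beside that of all genes is no test of the set. The classical targets CTGF, CYR61 and ANKRD1 made up 9 of the 11 falls and were lower in cytokinesis failure in both lines and in slippage in MDA-MB-231. ANKRD1 was also among the rises, in HCC1806 fusion. LATS2, YAP1 and TEAD4 passed in none of the 6 comparisons. The 3 comparisons within a line share the same control libraries.

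**Figure D1:**
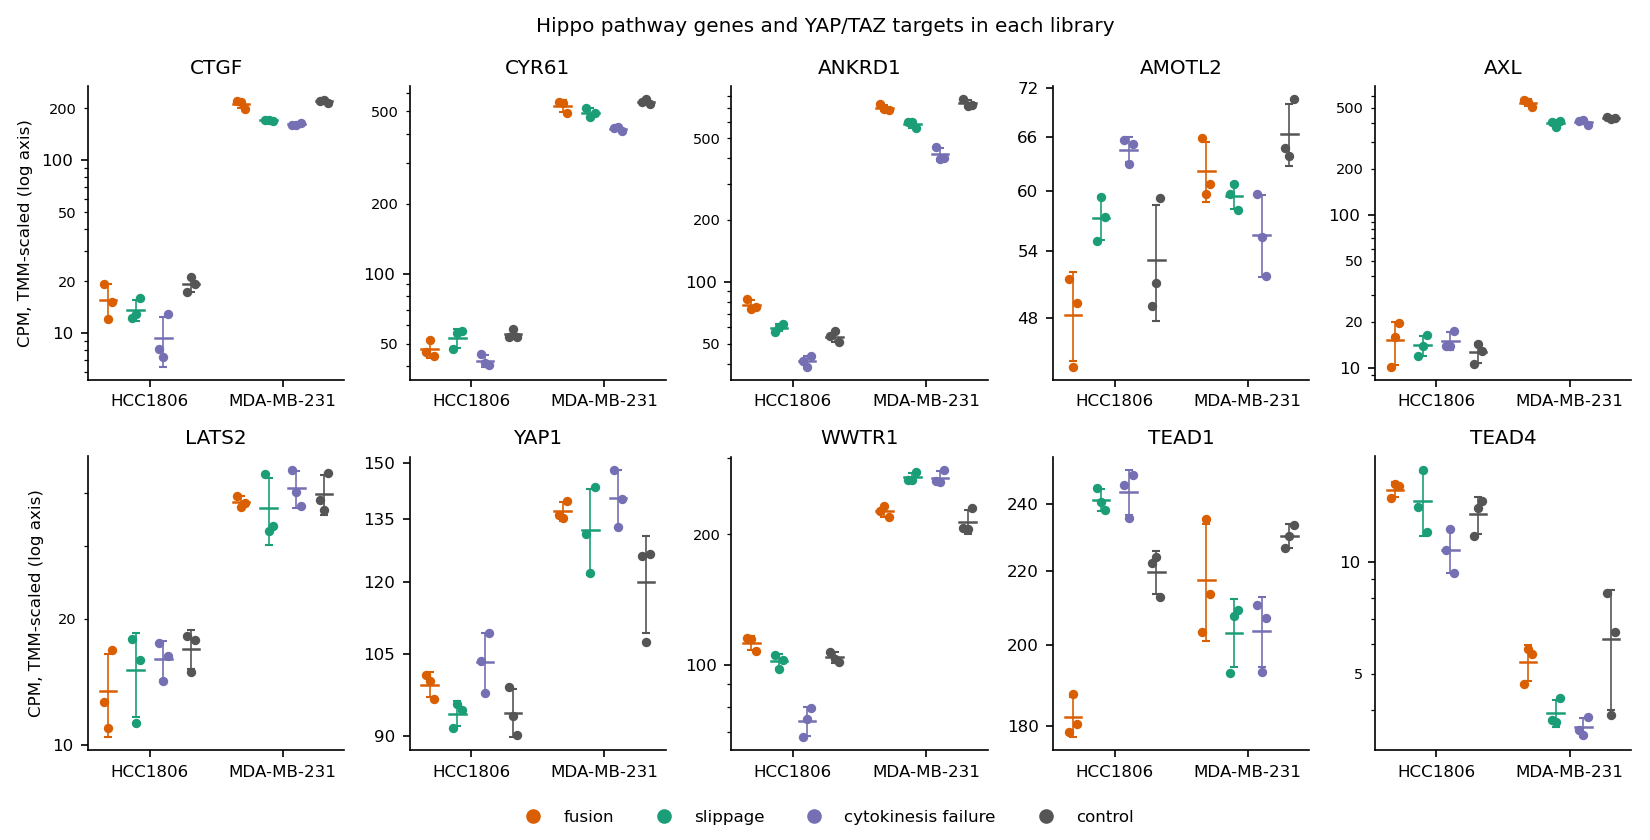
Level of each gene in each library, in CPM on a log axis, in HCC1806 (left in each panel) and MDA-MB-231 (right). Points are the 3 libraries of a group, horizontal lines their mean and vertical bars the SD; fusion, slippage and cytokinesis failure stand left of control. CTGF, CYR61 and ANKRD1 have their lowest group mean in cytokinesis failure in both lines, and all 4 groups of LATS2 overlap within each line.

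In HCC1806, cytokinesis failure changed 6 of the 10 genes, 2 higher and 4 lower, where 17.0% of all genes tested were called, 8.37% higher and 8.63% lower. Fusion changed 2 genes, 1 in each direction (10.9% of all genes, 5.33% higher and 5.55% lower). Slippage changed none (3.33% of all genes, 1.53% higher and 1.81% lower), although 2 of the 10 had an unadjusted p below 0.05; DESeq2 and limma also called 0. In MDA-MB-231 slippage changed 4 genes, 1 higher and 3 lower (6.18% of all genes, 3.27% higher and 2.91% lower). Cytokinesis failure also changed 4, 1 higher and 3 lower (4.64% of all genes, 2.29% higher and 2.35% lower), and fusion 1, which was higher (17.4% of all genes, 9.34% higher and 8.11% lower). The 3 doubled libraries lay wholly beyond the 3 controls for 5 genes in HCC1806 fusion (26.7% of all genes), 2 in slippage (18.1%) and 6 in cytokinesis failure (31.6%). In MDA-MB-231 the same held for 2 genes in fusion (34.4% of all genes), 7 in slippage (24.3%) and 9 in cytokinesis failure (22.3%).

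**Figure D2:**
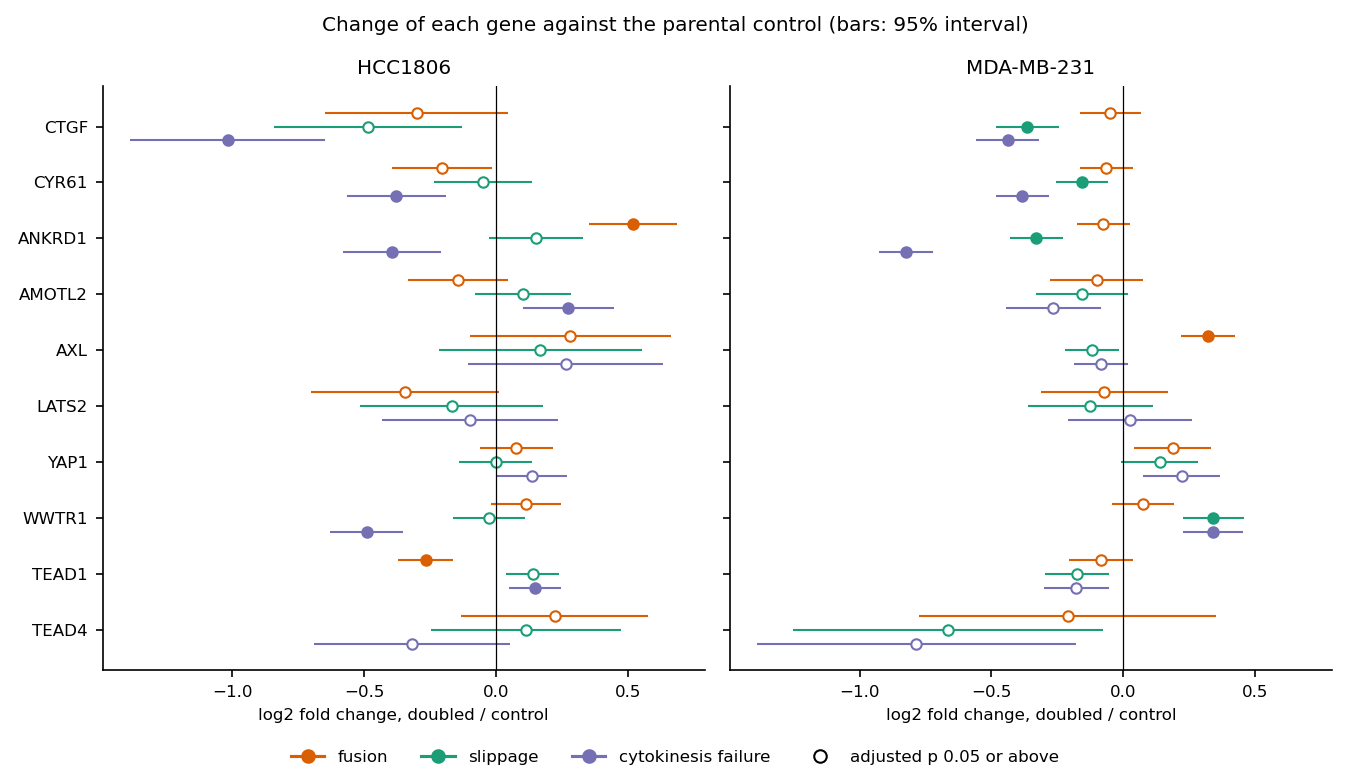
Log2 fold change of each gene in fusion, slippage and cytokinesis failure over control, in HCC1806 (left) and MDA-MB-231 (right), with 95% intervals as bars. Filled points have an adjusted p below 0.05. The widest fall is that of CTGF in HCC1806 cytokinesis failure (-1.02), and the LATS2 intervals all include 0.

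CTGF encodes a secreted matricellular protein and is among the most used readouts of YAP and TAZ activity. In HCC1806 it stood at 19.4, 12.1 and 15.3 CPM in fusion, 12.2, 12.95 and 15.9 CPM in slippage, 8.11, 7.36 and 12.9 CPM in cytokinesis failure and 17.4, 21.2 and 19.4 CPM in control libraries. In cytokinesis failure all 3 libraries lay below the controls, and CTGF fell 2.02-fold (log2 change -1.02 ± 0.19, SE, adjusted p = 1.83e-05). These levels rest on 27 to 72 counts per library. Slippage libraries also lay below every control, but the change of -0.49 ± 0.18 did not pass (adjusted p = 0.136), nor did that of -0.30 ± 0.17 in fusion (adjusted p = 0.305).

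In MDA-MB-231 CTGF was more abundant, at 220, 218 and 198 CPM in fusion, 171, 171 and 168 CPM in slippage, 160, 161 and 164 CPM in cytokinesis failure and 221, 224 and 214 CPM in control libraries. Slippage and cytokinesis failure lay wholly below control, whereas fusion overlapped it. CTGF fell 1.29-fold in slippage (log2 change -0.36 ± 0.059, adjusted p = 4.40e-05) and 1.36-fold in cytokinesis failure (-0.44 ± 0.059, adjusted p = 1.72e-06). Without the 2 libraries that stood apart these changes were -0.36 and -0.44. In fusion the change was -0.05 with a 95% interval of -0.17 to 0.07.

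CYR61, a matricellular protein gene of the same family, showed smaller changes. In HCC1806 it had 44.99, 41.1 and 40.6 CPM in cytokinesis failure against 53.3, 58.0 and 53.6 CPM in control, with no overlap, and fell 1.30-fold (log2 change -0.38 ± 0.095, adjusted p = 0.00222). Fusion (46.2, 51.9 and 44.2 CPM) also lay below control without passing (-0.21 ± 0.096, adjusted p = 0.174), and slippage (47.3, 55.5 and 56.5 CPM) overlapped control (-0.05 ± 0.093, adjusted p = 0.894). In MDA-MB-231 the values were 549, 542 and 491 CPM in fusion, 514, 472 and 494 CPM in slippage, 426, 428 and 410 CPM in cytokinesis failure and 551, 563 and 539 CPM in control libraries. All 3 cytokinesis failure libraries were lower than every other library of the line, and CYR61 fell 1.30-fold against control there (-0.38 ± 0.050, adjusted p = 7.56e-07; -0.39 without the 2 libraries that stood apart). The fall in slippage was close to the threshold (-0.16 ± 0.049, adjusted p = 0.0479). It was lost with DESeq2 (adjusted p = 0.0787), with limma (0.150), with a replicate block (0.0601), without control replicate 1, 2 or 3 (0.121, 0.208 and 0.0991) and without slippage replicate 2 or 3 (0.270 and 0.0842). In fusion the change was -0.06 ± 0.049 (adjusted p = 0.412).

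ANKRD1, an ankyrin repeat protein gene that acts as a nuclear cofactor and is induced by YAP with TEAD, moved in opposite directions between routes in HCC1806. Its levels there were 82.2, 74.1 and 75.3 CPM in fusion, 57.3, 60.1 and 62.2 CPM in slippage, 41.1, 38.7 and 43.5 CPM in cytokinesis failure and 54.4, 57.3 and 50.7 CPM in control libraries. Fusion lay wholly above control and cytokinesis failure wholly below it. ANKRD1 rose 1.43-fold in fusion (log2 change 0.52 ± 0.085, adjusted p = 2.08e-06) and fell 1.31-fold in cytokinesis failure (-0.39 ± 0.093, adjusted p = 0.00108), and its change of 0.15 ± 0.089 in slippage did not pass (adjusted p = 0.451).

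In MDA-MB-231 ANKRD1 had 730, 691 and 682 CPM in fusion, 602, 600 and 557 CPM in slippage, 454, 397 and 401 CPM in cytokinesis failure and 771, 718 and 725 CPM in control libraries. Cytokinesis failure was lowest, slippage lay between it and control with no overlap on either side, and fusion overlapped control. The 1.77-fold fall in cytokinesis failure (-0.82 ± 0.051, adjusted p = 2.67e-15) had the smallest adjusted p of these genes in any comparison with control, and ANKRD1 fell 1.26-fold in slippage (-0.33 ± 0.050, adjusted p = 1.69e-05). Without the 2 libraries that stood apart the changes were -0.89 and -0.29. The change of -0.08 ± 0.050 in fusion did not pass (adjusted p = 0.315), but limma on log2(TPM + 1) called it (-0.20, adjusted p = 0.0254). On that scale the median of all genes in this comparison was -0.11.

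AMOTL2, an angiomotin family gene whose protein binds and restrains YAP, went the other way from CTGF, CYR61 and ANKRD1 in HCC1806 cytokinesis failure. It had 65.7, 62.9 and 65.2 CPM there, 51.4, 44.0 and 49.2 CPM in fusion, 55.0, 59.4 and 57.4 CPM in slippage and 49.0, 51.1 and 59.3 CPM in control libraries. Cytokinesis failure lay wholly above control and AMOTL2 rose 1.21-fold (log2 change 0.27 ± 0.087, adjusted p = 0.0178). The call was lost with DESeq2 (adjusted p = 0.132), with limma (0.0567), without control replicate 1 or 2 (0.141 and 0.0784) and without cytokinesis failure replicate 1 or 3 (0.0590 and 0.0504).

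In MDA-MB-231 AMOTL2 had 65.9, 59.7 and 60.8 CPM in fusion, 59.7, 60.8 and 58.1 CPM in slippage, 59.7, 55.4 and 51.7 CPM in cytokinesis failure and 64.7, 63.9 and 70.6 CPM in control libraries. Slippage and cytokinesis failure lay below control, but no change passed, the largest being -0.27 ± 0.089 in cytokinesis failure (adjusted p = 0.0783). Without the 2 libraries that stood apart that change was -0.31 and passed (adjusted p = 0.0296).

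AXL, a receptor tyrosine kinase gene associated with a mesenchymal state and drug resistance, rose in a single comparison with control. In MDA-MB-231 fusion it had 564, 545 and 508 CPM against 437, 424 and 430 CPM in control, with no overlap, a 1.25-fold rise (0.32 ± 0.050, adjusted p = 7.13e-06; 0.32 without the 2 libraries that stood apart). On the log2(TPM + 1) scale, where the median of all genes in this comparison was -0.11, the AXL change was 0.20 and did not pass with limma (adjusted p = 0.0523). Slippage (406, 375 and 407 CPM) and cytokinesis failure (408, 418 and 388 CPM) lay just below control and did not pass (-0.12 ± 0.051 and -0.09 ± 0.051, adjusted p = 0.173 and 0.409). In HCC1806 AXL was scarce, with 10.2 to 19.7 CPM over all 12 libraries, and its changes of 0.28 ± 0.19 for fusion, 0.17 ± 0.19 for slippage and 0.27 ± 0.19 for cytokinesis failure did not pass.

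LATS2, the kinase gene of the set, did not pass in any comparison within a line, against control or between routes. In HCC1806 its level was 12.6, 10.9 and 16.8 CPM in fusion, 17.9, 11.3 and 15.9 CPM in slippage, 17.5, 14.2 and 16.3 CPM in cytokinesis failure and 18.2, 14.9 and 17.8 CPM in control libraries. In MDA-MB-231 it was 39.5, 37.0 and 38.0 CPM in fusion, 44.6, 32.5 and 33.3 CPM in slippage, 45.6, 40.4 and 37.4 CPM in cytokinesis failure and 38.6, 36.4 and 44.7 CPM in control libraries. Each doubled group overlapped its control in both lines. None of the 6 comparisons had an unadjusted p below 0.05, and DESeq2 and limma called 0 of 6.

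The 95% intervals bound what could have been missed. In MDA-MB-231 they ran from -0.31 to 0.17 in fusion, -0.36 to 0.11 in slippage and -0.21 to 0.26 in cytokinesis failure on the log2 scale. In HCC1806, with 34 to 67 counts per library, they were wider, from -0.70 to 0.01 in fusion, -0.51 to 0.18 in slippage and -0.43 to 0.24 in cytokinesis failure. A change of the size seen for ANKRD1 in MDA-MB-231 cytokinesis failure lay outside all 6 intervals; one the size of the CYR61 fall in HCC1806 cytokinesis failure lay inside the 3 HCC1806 intervals and outside those of MDA-MB-231.

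YAP1, which encodes the coactivator YAP, did not pass in any comparison within a line in the main tests. It averaged 99.2 ± 2.30 CPM in fusion, 93.9 ± 2.19 CPM in slippage, 103 ± 5.83 CPM in cytokinesis failure and 94.1 ± 4.21 CPM in control HCC1806 (SD, n = 3 each), with every group overlapping control. In MDA-MB-231 it had 136, 135 and 140 CPM in fusion, 131, 122 and 143 CPM in slippage, 148, 133 and 140 CPM in cytokinesis failure and 126, 107 and 126 CPM in control libraries. Fusion and cytokinesis failure lay above every control, yet neither passed: the changes were 0.19 ± 0.073 and 0.22 ± 0.072 (adjusted p = 0.0706 and 0.0691). Of the 6 comparisons 3 had an unadjusted p below 0.05, while DESeq2 and limma called 0. The cytokinesis failure change was called when low counts were not filtered (adjusted p = 0.0472) and the fusion change without the 2 libraries that stood apart (0.19, adjusted p = 0.0235).

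WWTR1, the gene of the paralogous coactivator TAZ, changed in opposite directions in the lines. In HCC1806 it had 68.0, 74.9 and 79.2 CPM in cytokinesis failure, 115, 114 and 107 CPM in fusion, 105, 97.6 and 102 CPM in slippage and 107, 103 and 102 CPM in control libraries. It fell 1.41-fold in cytokinesis failure (log2 change -0.49 ± 0.070, adjusted p = 4.45e-08), whose libraries lay below all others of the line. Its changes in fusion (0.11 ± 0.067) and slippage (-0.03 ± 0.068) did not pass (adjusted p = 0.317 and 0.925).

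In MDA-MB-231 WWTR1 had 226, 232 and 219 CPM in fusion, 267, 266 and 278 CPM in slippage, 265, 264 and 281 CPM in cytokinesis failure and 206, 206 and 230 CPM in control libraries. Slippage and cytokinesis failure lay wholly above control and fusion overlapped it. WWTR1 rose 1.27-fold both in slippage (0.34 ± 0.057, adjusted p = 7.60e-05) and in cytokinesis failure (0.34 ± 0.057, adjusted p = 8.71e-05), and by 0.32 and 0.35 without the 2 libraries that stood apart. In fusion the change was 0.08 ± 0.058 (adjusted p = 0.410). With limma the slippage call was lost (adjusted p = 0.0581). WWTR1-AS1, an antisense gene, had 0 to 2 counts per library. On the deposited TPM scale, which divides by transcript length, the ratio of YAP1 to WWTR1 was 0.873 in HCC1806 fusion, 0.913 in slippage, 1.39 in cytokinesis failure and 0.895 in control. In MDA-MB-231 it was 0.599 in fusion, 0.483 in slippage, 0.514 in cytokinesis failure and 0.552 in control. WWTR1 thus had the higher TPM of the pair in every group but HCC1806 cytokinesis failure.

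TEAD1, a TEAD transcription factor gene, moved in both directions in HCC1806. It had 179, 188 and 180 CPM in fusion, 245, 241 and 238 CPM in slippage, 246, 236 and 249 CPM in cytokinesis failure and 222, 224 and 213 CPM in control libraries, and no doubled group overlapped control. It fell 1.203-fold in fusion (log2 change -0.27 ± 0.053, adjusted p = 0.000109) and rose in cytokinesis failure (0.15 ± 0.050, adjusted p = 0.0286), while its change of 0.14 ± 0.051 in slippage did not pass (adjusted p = 0.134). The rise was lost with DESeq2 (0.111), limma (0.0847) and no filter on low counts (0.0507), and without control replicate 1 or 3 (0.0546 and 0.126) or cytokinesis failure replicate 1 or 3 (0.0814 and 0.108), all adjusted p.

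In MDA-MB-231 TEAD1 had 203, 235 and 214 CPM in fusion, 193, 208 and 209 CPM in slippage, 210, 193 and 207 CPM in cytokinesis failure and 227, 230 and 234 CPM in control libraries. Slippage and cytokinesis failure lay below control, but no change passed (-0.08 ± 0.060 in fusion, -0.18 ± 0.060 both in slippage and in cytokinesis failure, adjusted p = 0.371, 0.0704 and 0.0855). Without the 2 libraries that stood apart both falls passed, at -0.20 each (adjusted p = 0.0339 in slippage and 0.0273 in cytokinesis failure).

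TEAD4 was the scarcest of the set in MDA-MB-231. It averaged 15.6 ± 0.70 CPM in fusion, 14.5 ± 2.83 CPM in slippage, 10.8 ± 1.47 CPM in cytokinesis failure and 13.4 ± 1.501 CPM in control HCC1806 (SD, n = 3 each). In MDA-MB-231 it averaged 5.39 ± 0.60 CPM in fusion, 3.93 ± 0.33 CPM in slippage, 3.60 ± 0.21 CPM in cytokinesis failure and 6.20 ± 2.20 CPM in control (SD, n = 3 each), from 9 to 30 counts per library. No change against control passed, although 2 of the 6 comparisons had an unadjusted p below 0.05; DESeq2 and limma called 0. In MDA-MB-231 cytokinesis failure all 3 libraries lay below control and the interval was wide, from -1.39 to -0.18.

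A call in 1 population and not in another does not show that they differ, so the doubled populations were set against each other. In HCC1806, fusion against cytokinesis failure gave 6 calls (17.9% of all genes): ANKRD1 (log2 difference 0.91, adjusted p = 1.17e-14), WWTR1 (0.60, 2.88e-11), CTGF (0.72, 0.00480) and TEAD4 (0.54, 0.0273) were higher in fusion, and TEAD1 (-0.42, 4.40e-10) and AMOTL2 (-0.42, 0.000227) lower. Fusion against slippage gave 2 calls (9.23% of all genes), with ANKRD1 higher (0.37, adjusted p = 0.00101) and TEAD1 lower in fusion (-0.41, adjusted p = 3.55e-09). Slippage against cytokinesis failure gave 3 calls (6.80% of all genes), all higher in slippage: WWTR1 (0.47, adjusted p = 6.97e-07), ANKRD1 (0.55, 8.10e-06) and CYR61 (0.33, 0.0211). The call on CTGF was lost without cytokinesis failure replicate 2 (adjusted p = 0.0524) or fusion replicate 1 (0.102). That on TEAD4 was lost with DESeq2 (0.150) and without cytokinesis failure replicate 1 or 3 or fusion replicate 2 or 3 (0.0737 to 0.128). That on CYR61 was lost with DESeq2 (0.129) and without cytokinesis failure replicate 2 or 3 or slippage replicate 2 or 3 (0.0680 to 0.139).

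In MDA-MB-231, fusion against cytokinesis failure gave 5 calls (24.5% of all genes). ANKRD1 (log2 difference 0.75, adjusted p = 7.01e-15), AXL (0.41, 4.80e-08), CTGF (0.39, 3.09e-06) and CYR61 (0.32, 4.67e-06) were higher in fusion and WWTR1 lower (-0.26, 0.000521). Fusion against slippage gave 4 calls (17.1% of all genes), with AXL (0.44, adjusted p = 1.27e-08), CTGF (0.31, 0.000127) and ANKRD1 (0.25, 0.000258) higher in fusion and WWTR1 lower (-0.27, 0.000706). Slippage against cytokinesis failure gave 2 (3.18% of all genes), ANKRD1 (0.49, adjusted p = 6.83e-09) and CYR61 (0.23, 0.00465), both higher in slippage. Without the 2 libraries that stood apart these 3 comparisons again gave 5, 4 and 2 calls, and each named gene passed with the same sign. The ANKRD1 differences were then 0.81, 0.22 and 0.59 in that order, and that of CYR61 between slippage and cytokinesis failure was 0.24. ANKRD1 was called in all 6 comparisons between doubled populations, and it was lower in cytokinesis failure than in fusion and than in slippage in both lines.

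The difference between the lines was tested as an interaction over all 24 libraries, as the HCC1806 change minus the MDA-MB-231 change. In cytokinesis failure 5 genes differed, 3 with a positive and 2 with a negative difference (3.31% and 3.22% of all genes): WWTR1 by -0.83 ± 0.090 (adjusted p = 2.56e-11), AMOTL2 by 0.55 ± 0.12 (0.00136), ANKRD1 by 0.44 ± 0.096 (0.00104), TEAD1 by 0.33 ± 0.078 (0.00221) and CTGF by -0.57 ± 0.18 (0.0350). WWTR1, AMOTL2 and TEAD1 had changes of opposite sign in the lines, whereas ANKRD1 and CTGF fell in both, ANKRD1 less and CTGF more in HCC1806. The CTGF difference was lost with DESeq2 (adjusted p = 0.0531), without HCC1806 control replicate 2 or 3 (0.120 and 0.0812), HCC1806 cytokinesis failure replicate 1 or 2 (0.179 and 0.225), MDA-MB-231 control replicate 3 (0.0621) or MDA-MB-231 cytokinesis failure replicate 3 (0.0502), and was -0.87 without HCC1806 cytokinesis failure replicate 3. In slippage 3 genes differed, 2 with a positive and 1 with a negative difference (1.66% and 1.88% of all genes): ANKRD1 by 0.48 ± 0.093 (adjusted p = 0.000288), WWTR1 by -0.37 ± 0.089 (0.00635) and TEAD1 by 0.32 ± 0.078 (0.00763). In fusion ANKRD1 alone differed, by 0.59 ± 0.090 (adjusted p = 5.86e-07), where 5.48% of all genes had a positive and 6.57% a negative difference. Without the 2 libraries that stood apart, a setting added after the data were seen, the same 5, 3 and 1 genes passed with the same signs. WWTR1 then differed by -0.84 in cytokinesis failure and -0.35 in slippage, CTGF by -0.58 in cytokinesis failure (adjusted p = 0.0289), and ANKRD1 by 0.50 in cytokinesis failure, 0.45 in slippage and 0.59 in fusion.

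**Figure D3:**
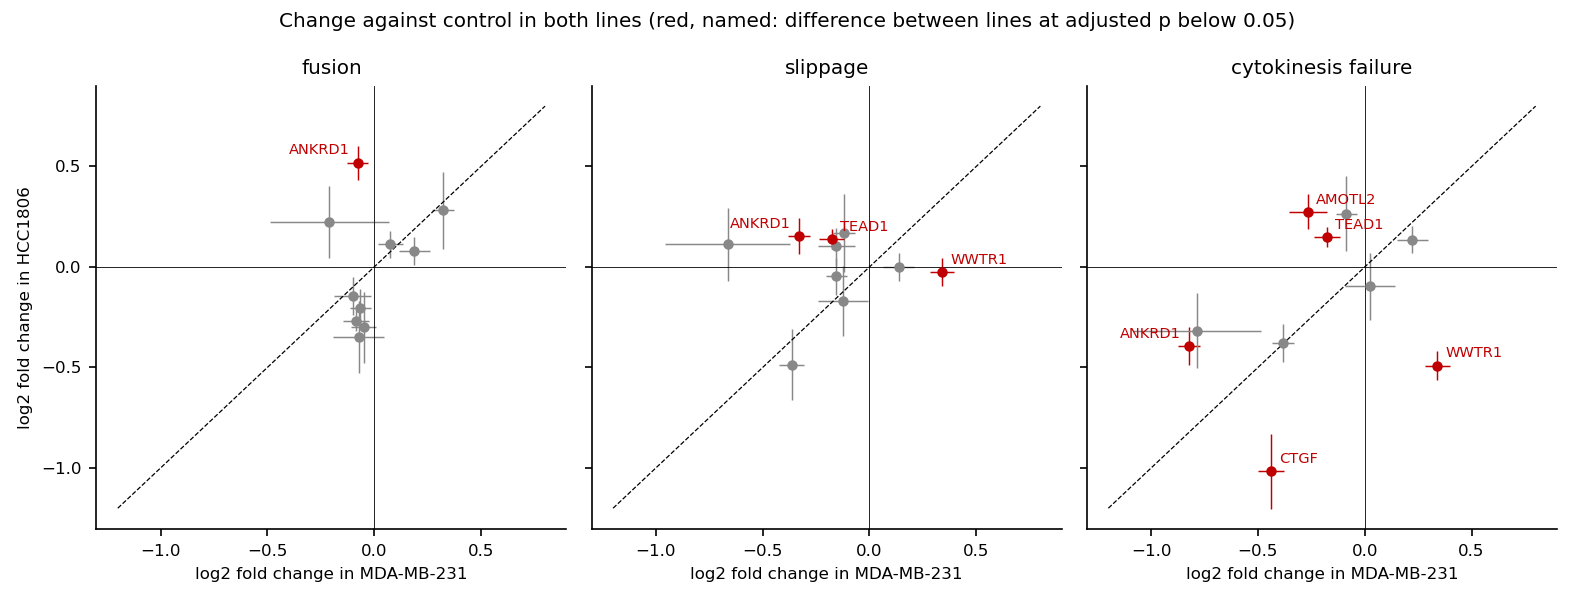
Log2 fold change against control in HCC1806 (vertical axis) and in MDA-MB-231 (horizontal axis) for fusion, slippage and cytokinesis failure; bars are SE and the dashed line marks equal change. Named red points differ between the lines at an adjusted p below 0.05: ANKRD1 in all 3 panels, WWTR1 and TEAD1 in slippage and cytokinesis failure, and CTGF and AMOTL2 in cytokinesis failure.

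The parental controls of the lines differed in 9 of the 10 genes, where 76.2% of all genes were called, 38.8% higher and 37.4% lower in HCC1806. The 8 that were lower in HCC1806 control than in MDA-MB-231 control included AXL (34.4-fold lower, log2 difference -5.10 ± 0.093), ANKRD1 (13.7-fold, -3.77 ± 0.062), CTGF (11.4-fold, -3.51 ± 0.092) and CYR61 (10.04-fold, -3.33 ± 0.063). LATS2 (-1.22 ± 0.14), WWTR1 (-1.04 ± 0.063), YAP1 (-0.35 ± 0.072) and AMOTL2 (-0.32 ± 0.088) were lower by less. TEAD4 was 2.13-fold higher in HCC1806 (1.09 ± 0.22), and TEAD1 did not pass (-0.07 ± 0.055, adjusted p = 0.252), though limma on log2(TPM + 1) called it at -0.22 (adjusted p = 0.00908). On that scale the median of all genes between the controls was -0.12.

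On the TPM scale ANKRD1 and CYR61 were the highest of the set in both controls, at 25.6 ± 1.24 and 21.9 ± 0.21 TPM in HCC1806 and 390 ± 16.4 and 245 ± 9.77 TPM in MDA-MB-231 (SD, n = 3 each). In HCC1806 TEAD1 (19.6 ± 0.90 TPM), WWTR1 (17.9 ± 1.22 TPM) and YAP1 (16.1 ± 1.28 TPM) followed, then AMOTL2 (9.14 ± 1.06 TPM), TEAD4 (7.69 ± 0.76 TPM), CTGF (7.51 ± 0.41 TPM), AXL (2.64 ± 0.29 TPM) and LATS2 (2.63 ± 0.39 TPM). In that line the libraries of TEAD1 and WWTR1 overlapped, as did those of WWTR1 and YAP1, AMOTL2 and TEAD4, TEAD4 and CTGF, and AXL and LATS2, so the order within these pairs does not hold beyond the spread. In MDA-MB-231 AXL (101 ± 1.78 TPM) and CTGF (95.5 ± 4.05 TPM) came next, then WWTR1 (41.2 ± 1.96 TPM), TEAD1 (22.9 ± 0.38 TPM) and YAP1 (22.7 ± 1.66 TPM), which overlapped, AMOTL2 (12.7 ± 0.49 TPM), LATS2 (6.86 ± 0.62 TPM) and TEAD4 (3.90 ± 1.28 TPM). Because tags come from transcript ends, division by length can understate long transcripts. In CPM, which has no such division, the order in HCC1806 control was different. There TEAD1 (220 CPM), WWTR1 (104 CPM) and YAP1 (94.1 CPM) stood above CYR61 (55.0 CPM) and ANKRD1 (54.1 CPM). In MDA-MB-231 control ANKRD1 (738 CPM) and CYR61 (551 CPM) were the highest in CPM too.

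Of 19 further YAP and TAZ target genes, F3, which encodes tissue factor, the starter of blood clotting, fell in all 6 comparisons with control. Its log2 changes were -0.45 ± 0.037, -0.12 ± 0.036 and -0.56 ± 0.037 in HCC1806 fusion, slippage and cytokinesis failure and -0.67 ± 0.060, -0.44 ± 0.058 and -0.51 ± 0.059 in MDA-MB-231 fusion, slippage and cytokinesis failure, with the largest adjusted p (0.0450) in HCC1806 slippage. In HCC1806 fusion 8 of the 19 tested fell and none rose, where 5.55% of all genes fell and 5.33% rose, among them THBS1, a thrombospondin (-0.42), and IGFBP3, a binding protein of insulin-like growth factors (-0.36). In HCC1806 cytokinesis failure 6 rose and 6 fell (8.37% and 8.63% of all genes), with IGFBP3 (0.85) and the secreted protein gene CCDC80 (0.62) among those higher. In HCC1806 slippage IGFBP3 rose (0.37) and F3 fell, where 1.53% of all genes rose and 1.81% fell. The list held 1 call there in place of 2 without control replicate 1 or 3, without slippage replicate 1 or 3 and with DESeq2. Limma called 0 there, so the fall of F3 in HCC1806 slippage did not pass with limma.

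In MDA-MB-231, where 18 of these targets were tested, fusion raised 3, including NT5E, the ecto-nucleotidase CD73 (0.45), and lowered 5, including AMIGO2, an adhesion protein (-0.78), where 9.34% of all genes rose and 8.11% fell. Slippage raised NT5E (0.27) and lowered 3, including CRIM1, a membrane protein that binds bone morphogenetic proteins (-0.50), where 3.27% of all genes rose and 2.91% fell. Limma called 2 genes of the list there in place of 4. Cytokinesis failure lowered 3, F3, TGFB2, a growth factor (-0.53), and CRIM1 (-0.38), where 2.35% of all genes fell. The median log2 change of the list was -0.14 in HCC1806 fusion, 0.05 in HCC1806 slippage and -0.02 in HCC1806 cytokinesis failure. It was 0.04 in MDA-MB-231 fusion, -0.14 in slippage and -0.09 in cytokinesis failure. The medians of all genes tested lay between -0.00308 and 0.00182.

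Among 16 tested upstream regulators, HCC1806 fusion lowered 6 and raised none, HCC1806 slippage lowered 1, and HCC1806 cytokinesis failure lowered 4 and raised 1. Of all genes, 5.55% fell in HCC1806 fusion, 1.81% in slippage and 8.63% in cytokinesis failure, where 8.37% rose. MAP4K4, a kinase that acts on LATS, fell by 0.22 in HCC1806 fusion, by 0.40 in slippage and by 0.43 in cytokinesis failure. AMOTL1, a paralogue of AMOTL2, and FAT1, an atypical cadherin, fell in HCC1806 fusion (-0.34 and -0.45) and cytokinesis failure (-0.47 and -0.41). In MDA-MB-231 fusion FAT1 (0.48) and FRMD6 (0.30) rose and the kinase TAOK1 fell (-0.21), 3 of 16 or 18.75%, close to the 17.4% of all genes called there. WWC1, a scaffold that promotes LATS activation, fell in MDA-MB-231 slippage (-0.53) and cytokinesis failure (-0.82), where AMOTL1 rose (0.33). No other regulator passed in either, where 6.18% (slippage) and 4.64% (cytokinesis failure) of all genes were called. The list median was -0.14 in HCC1806 fusion, -0.07 in HCC1806 slippage and -0.05 in HCC1806 cytokinesis failure, and 0.10 in MDA-MB-231 fusion, 0.01 in slippage and -0.01 in cytokinesis failure. In HCC1806 fusion DESeq2 and limma each called 3 genes of the list in place of 6. In HCC1806 cytokinesis failure DESeq2 called 3 in place of 5, limma 2, and 3 passed without cytokinesis failure replicate 1. In MDA-MB-231 cytokinesis failure 1 passed in place of 2 with DESeq2, with limma, and without control replicate 2 or 3 or cytokinesis failure replicate 1 or 3. In MDA-MB-231 limma called 1 in place of 3 in fusion and 0 in slippage, where 0 also passed without slippage replicate 3.

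Of the TEAD family and its cofactors, 4 were tested in each line. VGLL1, a TEAD-binding cofactor, fell in HCC1806 fusion (-0.71) and rose in cytokinesis failure (0.54), where TEAD2 also rose (0.42). That is 1 of 4 genes in HCC1806 fusion, where 10.9% of all genes were called, and 2 of 4 in cytokinesis failure, where 17.0% were. The list held 1 call in HCC1806 cytokinesis failure in place of 2 without control replicate 2, without cytokinesis failure replicate 1 and with DESeq2. VGLL4, which competes with YAP for TEAD factors, rose in MDA-MB-231 slippage (0.40) and cytokinesis failure (0.56), the 1 call of 4 in each (6.18% and 4.64% of all genes); the slippage call was lost with limma and without control replicate 3. None passed in HCC1806 slippage (3.33% of all genes) or MDA-MB-231 fusion (17.4%). In MDA-MB-231 fusion 1 passed without control replicate 1 or without the 2 libraries that stood apart.

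**Figure D4:**
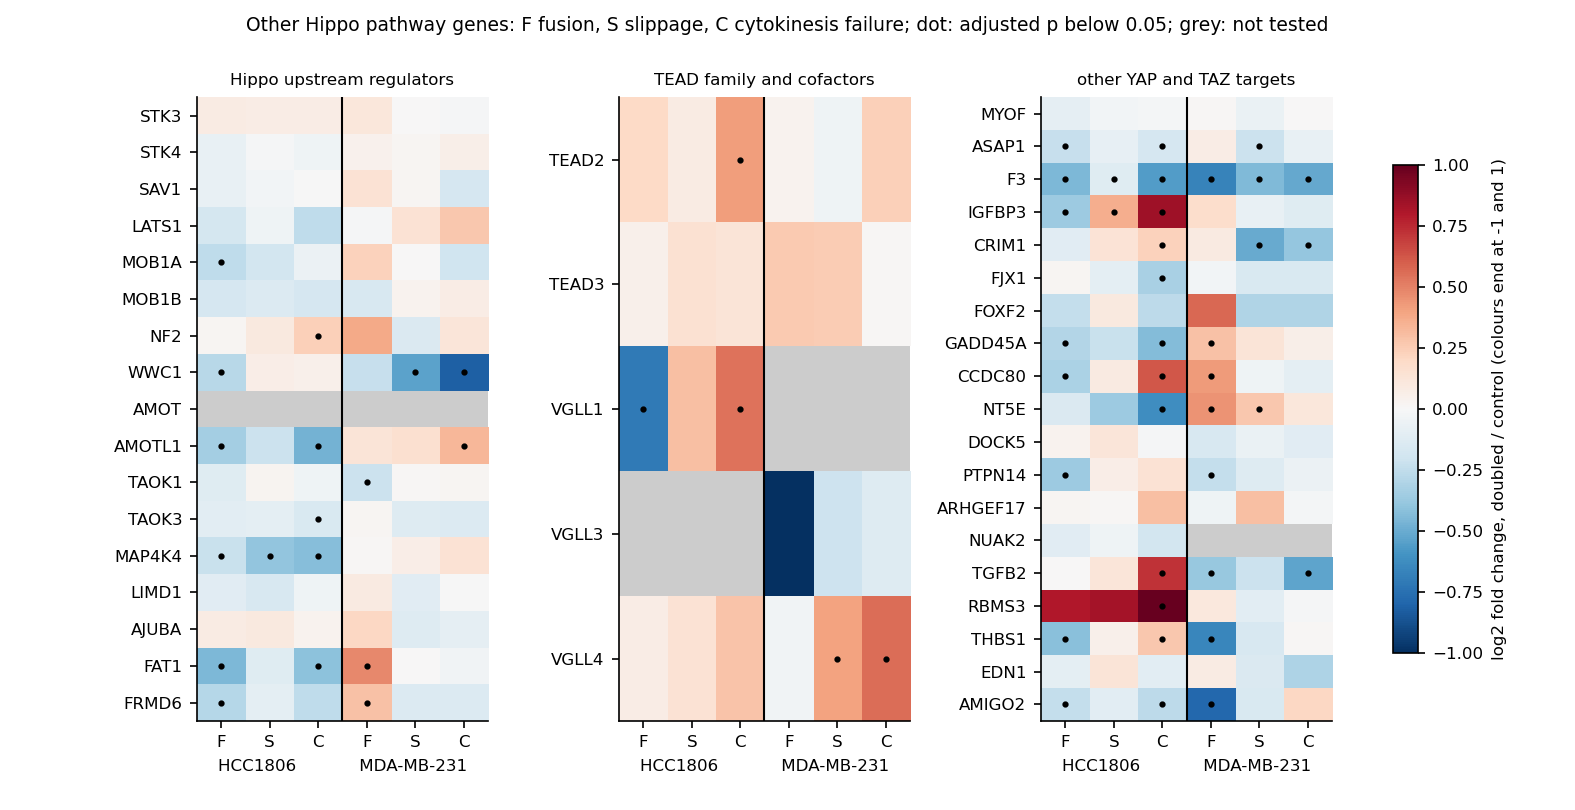
Log2 fold change against control of the other pathway genes in fusion (F), slippage (S) and cytokinesis failure (C) of HCC1806 (left 3 columns of each panel) and MDA-MB-231 (right 3). Red is higher and blue lower than control, dots mark an adjusted p below 0.05 and grey marks genes not tested. F3 has a dot in all 6 columns.

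The parental populations are aneuploid, and low-pass genome sequencing of these populations was not analysed here. The tested genes within 10 Mb of each Hippo gene were therefore described beside it. RefSeq positions placed 97.7% of the tested genes. Of the 17 called changes, the median log2 change of the neighbours lay between -0.09 and 0.09. For TEAD1 in HCC1806 fusion, where TEAD1 fell by 0.27, the median of 87 neighbours was -0.09. Of these 87 neighbours 19 were called lower and 1 higher, where 5.55% of all genes were lower and 5.33% higher. A shift of this region was not tested. ANKRD1 rose by 0.52 in HCC1806 fusion beside a neighbour median of -0.08, and fell by 0.82 in MDA-MB-231 cytokinesis failure beside one of -0.01. WWTR1 fell by 0.49 in HCC1806 cytokinesis failure beside a median of 0.07 and CTGF by 1.02 beside 0.02. In MDA-MB-231 the neighbour medians of WWTR1 were 0.03 in slippage and in cytokinesis failure.

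**Figure D5:**
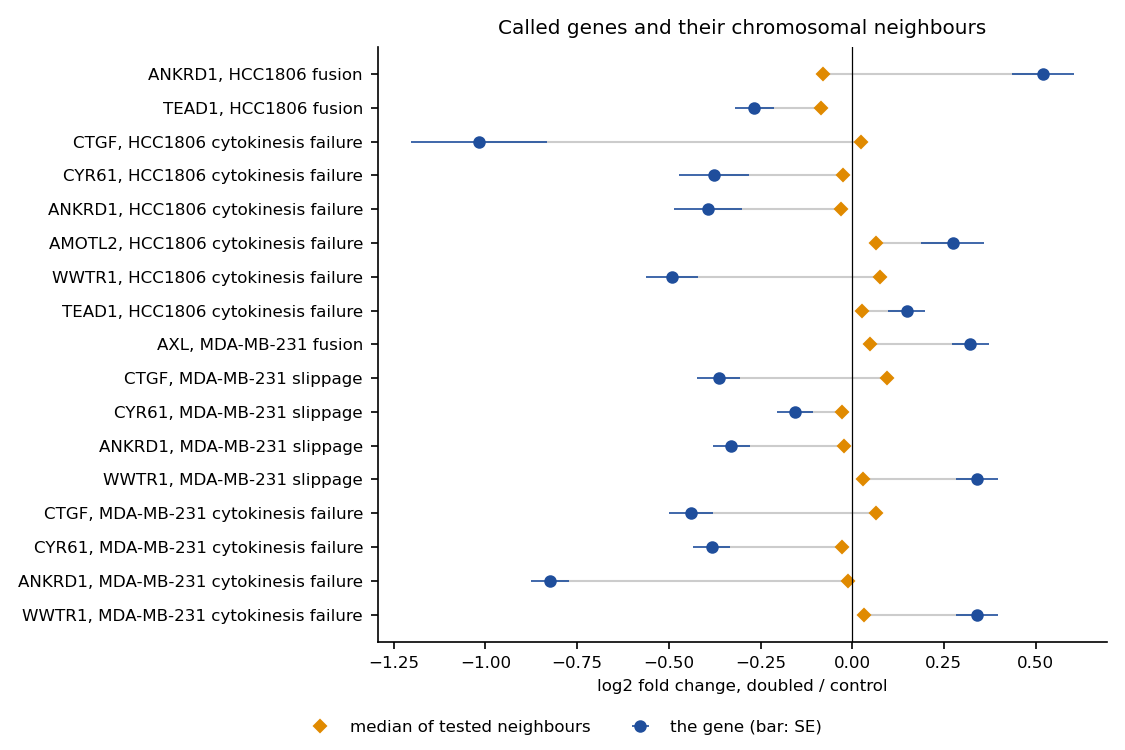
Log2 fold change against control of each called gene (circles, bars SE) and the median of the tested genes within 10 Mb of it (diamonds). The diamonds lie within 0.1 of 0 and the circles lie between -1.02 and 0.52.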

How the data were processed

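RNA of 24 libraries, 3 biological replicates in each of 8 groups, was read by 3′ tag sequencing (TAGseq) with single 100-base reads, per the labels' protocols. The submitters' processing notes name STAR, Salmon and the build GRCh38, with no versions; the annotation, the strand setting and any removal of duplicates are not given in the sources used here, so values of antisense or overlapping genes are uncertain. The deposited tables hold Salmon's estimated counts per gene (29744 genes, 53 gene names held more than once, 4.41% of values not whole) and TPM, which the authors' pipeline scaled by transcript length and library. Low-pass genome sequencing was not analysed here.

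Estimated counts were rounded and tested with edgeR 4.0.16 under R 4.3.3 by its robust quasi-likelihood F-test, after filterByExpr and TMM scaling, on the 12 libraries of a line or, for differences between lines, on all 24. Benjamini-Hochberg adjustment ran over all genes tested, and a call is an adjusted p below 0.05. The standard error of a log2 change is its size divided by the root of F. CPM levels were scaled by TMM over the 24 libraries. The biological coefficient of variation was 3.88% (HCC1806) or 5.28% (MDA-MB-231). The procedure was tested on simulated counts of fusion against control. Of 100 genes with a simulated log2 change of 0.5, it recovered 56 in HCC1806 and 50 in MDA-MB-231. At a log2 change of 1 it recovered 85 of 100 in each line. Changes of 0.5 or less, and some of 1, can therefore be missed. False calls numbered 8 in HCC1806 and 5 in MDA-MB-231. The main tests did not pair samples by replicate number, and the labels do not say whether same-numbered samples belong together.

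The members and gene lists were chosen with earlier results of these data known. All 10 members are named in every comparison with control, those called in comparisons between routes and lines, and of each list up to 3 called genes with the smallest adjusted p. Alternatives were RLE size factors, no filter on low counts, DESeq2 1.42.0, limma 3.58.1 on log2(TPM + 1) with a pseudocount of 1, a replicate block, leaving out each replicate, and leaving out both MDA-MB-231 libraries that stood apart. Counts per list under these settings, and the differences between lines without both libraries, were added after the data were seen. Upstream sequences and gene positions came from RefSeq (GRCh38.p14).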

Additional observations from a re-analysis of the deposited data

Results flagged for a closer look

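The changes of 5 genes against control differed between the lines by a test of the difference itself (interaction over all 24 libraries, edgeR quasi-likelihood test), and all values below are HCC1806 minus MDA-MB-231 on the log2 scale. ANKRD1 differed in all 3 routes, namely 0.59 for fusion, 0.48 for slippage and 0.44 for cytokinesis failure. WWTR1 differed by -0.37 in slippage and -0.83 in cytokinesis failure, where it fell in HCC1806 and rose in MDA-MB-231. TEAD1 differed by 0.32 in slippage and 0.33 in cytokinesis failure. In cytokinesis failure AMOTL2 differed by 0.55 and CTGF by -0.57, with CTGF resting on 27 to 72 counts per library in HCC1806. No cause of these differences was tested.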

How the results depend on the processing

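Of the 17 calls against control, 12 passed under every alternative run, 5 were lost in at least 1, and none changed sign. RLE size factors lost 0 of the 17, the replicate block 1, no filter on low counts 1, DESeq2 3 and limma on log2(TPM + 1) 5. In MDA-MB-231 slippage limma called 2 genes in place of 4. Without the 2 libraries that stood apart, 2 in place of 1 passed in MDA-MB-231 fusion. In that setting 5 in place of 4 passed in MDA-MB-231 slippage and 6 in place of 4 in MDA-MB-231 cytokinesis failure. Limma moved the median of all genes in MDA-MB-231 fusion to -0.11. Signs changed only among changes that did not pass: WWTR1 in MDA-MB-231 fusion was -0.041 with limma and LATS2 in MDA-MB-231 cytokinesis failure -0.041 without the 2 libraries. With single replicates left out, HCC1806 slippage ranged from -0.032 to 0.035 for YAP1, -0.10 to 0.031 for CYR61 and -0.041 to 0.23 for TEAD4, MDA-MB-231 fusion from -0.44 to 0.041 for TEAD4 and -0.13 to 0.026 for LATS2, and MDA-MB-231 cytokinesis failure from -0.038 to 0.12 for LATS2. After each group's mean was taken off each gene, doubled libraries correlated with the same-numbered control of their line at -0.0689 to 0.0587. The replicate block, which called 3 genes in MDA-MB-231 slippage in place of 4, is no evidence on pairing. Over all genes, DESeq2 called 648 in place of 1247 in HCC1806 fusion, 142 in place of 382 in HCC1806 slippage, 975 in place of 1950 in HCC1806 cytokinesis failure, 1197 in place of 1993 in MDA-MB-231 fusion, 343 in place of 706 in MDA-MB-231 slippage and 302 in place of 530 in MDA-MB-231 cytokinesis failure. Limma called 706 in HCC1806 fusion, 88 in HCC1806 slippage, 169 in MDA-MB-231 slippage and 178 in MDA-MB-231 cytokinesis failure. Between HCC1806 routes DESeq2 called 528 in place of 1058 (fusion against slippage), 1096 in place of 2055 (fusion against cytokinesis failure) and 298 in place of 780 (slippage against cytokinesis failure), and limma 507 in the first and 372 in the last. Between MDA-MB-231 routes DESeq2 called 1210 in place of 1953, 1779 in place of 2795 and 173 in place of 363 in the same 3 comparisons, and limma 68 in the last. Between lines DESeq2 called 1007 in place of 1513 for fusion, 284 in place of 445 for slippage (limma 267) and 515 in place of 820 for cytokinesis failure. Counts of 9 to 72 per library limit TEAD4, CTGF, LATS2 and AXL in HCC1806 and TEAD4 in MDA-MB-231.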
